A study of Bos indicus with 8 samples.

Results

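The early growth response factors EGR1, EGR2 and EGR3, the immediate early response genes IER2 and IER5, the transcription factors MYC and SRF, and the Krüppel-like factors KLF4, KLF6 and KLF10 were followed in bovine cumulus cells, which enclose and nourish the oocyte. They were taken as every probe that the array's annotation names for 1 of these 10 genes. Of 43794 probes on the array 11 carried such a name and covered 9 of the genes, while EGR2 had no probe. After a filter on dim probes 10 probes of 8 genes remained, among 31948 probes and 12320 named genes in all.

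Cumulus-oocyte complexes, taken from 3 to 6 mm follicles of Bos indicus ovaries collected at a slaughterhouse, were cultured for 6 h in a HEPES-buffered Tyrode lactate medium with oestradiol at 1 µg/ml, recombinant human follicle-stimulating hormone (FSH) at 0.5 µg/ml, pyruvic acid at 0.2 mM, fetal bovine serum at 10% and gentamicin at 50 µg/ml. The control group received only this medium, and the adenosine group received 3 mM adenosine, a purine nucleoside, in addition. Each group had 4 pools of cumulus cells, with 10 given as the number per pool. Every adenosine pool was hybridised with the control pool of the same number on 2 arrays with exchanged dyes, giving 4 pool pairs on 8 two-colour arrays. No pool from before culture is among them, so all values compare adenosine with control at 6 h. The labels do not state whether different animals supplied the pools, and p-values therefore reflect the spread from pool to pool, which may be partly technical.

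These genes belong to the first that a cell transcribes after a stimulus, from regulators that are already present and without new protein. SRF binds serum response elements and, with its ERK-phosphorylated partners of the ELK family or with the actin-regulated MRTF coactivators, drives EGR1, IER2 and other early genes. Their products are mostly short-lived transcription factors that pass the signal on to later genes. In the follicle such genes are known to respond to gonadotropins and EGF-like ligands through cAMP and ERK.

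The share of probes above the level of the negative control spots was 71.1% to 87.4% per channel on 7 arrays. The eighth, which held pool pair 3 and adenosine in Cy3, was dimmer, at 45.4% (adenosine) and 41.3% (control), and a call that changed without it is given below. The granulosa markers INHA, FST, FSHR and CYP19A1 were detected in 8 of 8 adenosine and 8 of 8 control channels on their brightest probes, while AMHR2 was detected in 5 and 3 of 8 and did not pass the filter. Of 12 measured cumulus and granulosa markers 5 rose, among them INHA (log2 ratio of adenosine over control 0.91), FSHR (0.72) and FST (0.57), and 6 did not pass the test. The 1 that fell was HAS2, a hyaluronan synthase of cumulus expansion (-4.77). CYP17A1, which defines theca cells, was detected in 3 and 4 of 8 channels and did not pass the filter. Of the 6 measured theca and stroma markers 3 fell and 2 rose, and their mean log2 level was between 8.62 and 8.67 in the adenosine pools and between 9.24 and 9.29 in the control pools. Of 12 measured oocyte markers 1 rose, MOS (0.09), whose mean ratio was -0.29 where adenosine was labelled with Cy5 and 0.47 on the swapped arrays. The mean oocyte marker level was between 6.60 and 6.69 in the adenosine pools and between 6.61 and 6.67 in 3 control pools, but 7.02 in control pool 2. There FIGLA stood at 8.90, against 6.73 to 6.74 in the other control pools, and ZP4 at 8.45, against 6.28 to 6.37. Without pool pair 2 the calls of MYC (-2.71), KLF4 (-2.29), KLF6 (-0.63) and SRF (0.27) passed as they did with it (log2 ratios, limma adjusted p under 0.05). Of 4 leukocyte and 3 endothelial markers 1 each fell, and 3 erythrocyte markers did not pass. The leukocyte marker PTPRC did not pass, but its level differed between pools. It stood at 8.58, 7.88, 9.62 and 9.97 in adenosine pools 1 to 4 and at 8.66, 7.71, 10.44 and 10.18 in the control pools. What part these shifts have in the results was not tested. In pooled cells, fewer cells of a type and less RNA per cell cannot be told apart.

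Of the 8 measured genes MYC, KLF4 and KLF6 were lower with adenosine, SRF was slightly higher, and EGR1, IER2, IER5 and KLF10 did not pass the test (limma, adjusted p under 0.05, each gene read from its brightest kept probe). Thus 3 fell and 1 rose, against 20.8% of all measured genes that fell and 21.7% that rose, or 42.5% in either direction. The 4 adenosine pools lay apart from the 4 control pools for MYC, KLF4, KLF6, IER5 and SRF, while 31.1% of all genes showed such a separation. The same 5 genes kept 1 direction on all 8 arrays, which held for 41.8% of all genes. The median log2 ratio of adenosine over control was -0.80 over the 8 genes, and 0.00 over all genes. The normalization centres the ratios of each array near 0, so the value over all genes follows from the processing.

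**Figure D1:**
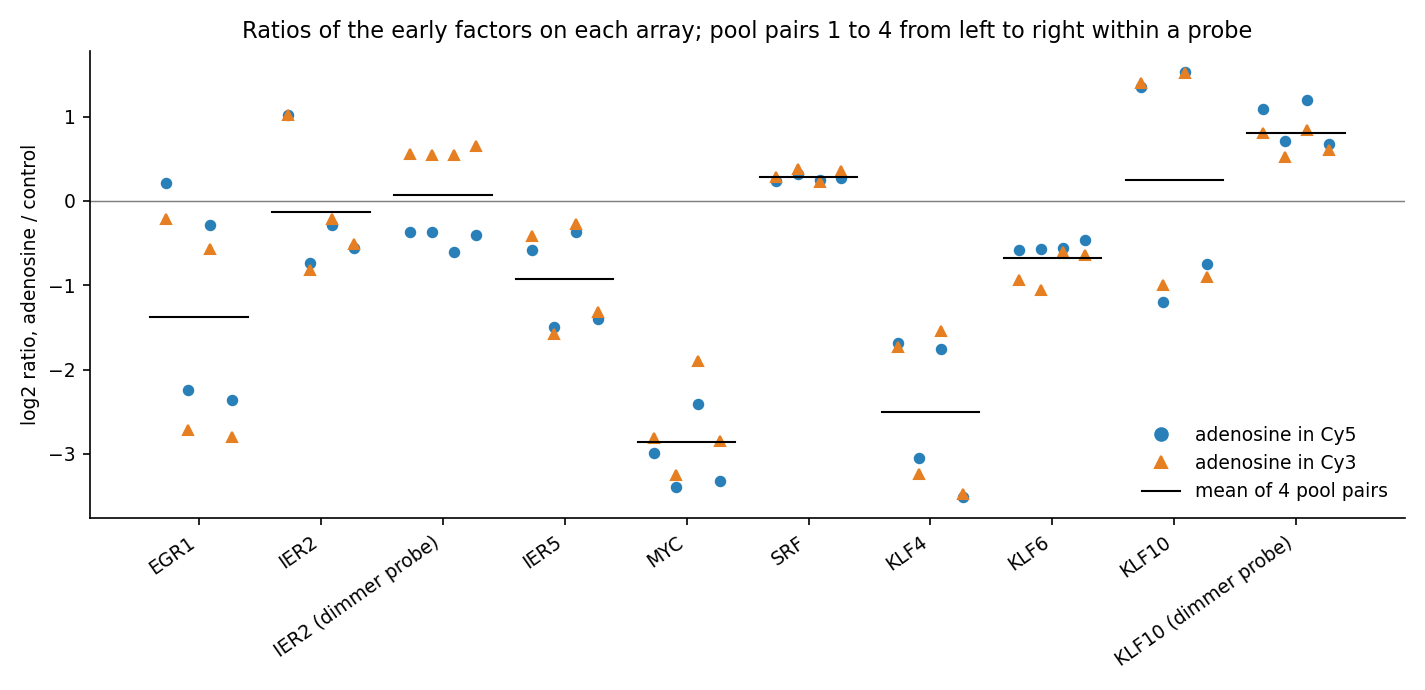
Log2 ratio of adenosine over control (vertical axis) of the 10 kept probes on each of the 8 arrays, with the 4 pool pairs from left to right within a probe, circles for adenosine in Cy5, triangles for adenosine in Cy3 and a line at the mean of the 4 pairs. MYC, KLF4, IER5 and KLF6 lie below 0 and SRF above 0 on all 8 arrays, while EGR1, IER2 and KLF10 spread widely between pool pairs.

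MYC, which drives growth and ribosome production, had the largest difference of these genes. Its log2 levels were 9.27, 8.38, 9.57 and 9.14 in adenosine pools 1 to 4 and 12.17, 11.70, 11.73 and 12.23 in the control pools of the same numbers. The highest adenosine pool was 2.13 below the lowest control pool. MYC fell 7.28-fold, with a log2 ratio of -2.86 ± 0.51 (SD, n = 4 pool pairs, limma adjusted p = 0.00187). Pairs 1 to 4 had ratios of -2.90, -3.32, -2.15 and -3.09, so that the smallest fall of a pair was 4.44-fold and the largest 10.0-fold. The arrays with Cy5-labelled adenosine RNA had a mean of -3.03, and the dye-swapped ones -2.70. Only 94 of the 12320 genes had a lower ratio. The MYC probe was well above background in both groups. Raw intensities were 167 to 870 in the adenosine channels and 2521 to 9467 in the control channels. The detection levels were 30.2 to 96.5 in the adenosine channels and 35.7 to 106 in the control channels.

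KLF4, a zinc-finger factor linked to growth arrest and to pluripotency, stood at 7.66, 7.04, 8.0 and 7.07 in the adenosine pools and at 9.38, 10.18, 9.65 and 10.56 in the control pools. All adenosine pools were below all control pools, by at least 1.38. The log2 ratio was -2.50 ± 0.96 (SD, n = 4, limma adjusted p = 0.0116), a 5.66-fold fall. Pool pairs 2 and 4, at -3.15 and -3.49, had larger falls than pairs 1 and 3, at -1.71 and -1.65. In fold terms the pairs ran from 3.14 to 11.3. Both dye orientations gave -2.50, and the 2 arrays of a pair differed by at most 0.22.

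KLF6, a widely expressed factor of the same family, had a smaller and more even difference. Its levels were 6.83, 6.79, 6.63 and 6.63 with adenosine and 7.59, 7.60, 7.22 and 7.19 in control, without overlap. The log2 ratio was -0.68 ± 0.13 (SD, n = 4, limma adjusted p = 0.00242), a 1.60-fold fall. The pairs lay between -0.81 and -0.56. The probe was dim, with raw adenosine intensities of 51.5 to 131, and the size of the fall depended on how the background was handled: with a normexp offset of 0 in place of 50 it was -1.15. The mean ratio was -0.55 where adenosine was labelled with Cy5 and -0.81 in the swapped arrays.

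SRF, the factor through which serum response elements act, was the only one of the 8 that rose on its brightest probe, by a small and even amount. Its adenosine levels of 7.37, 7.33, 7.37 and 7.38 were all above its control levels of 7.11, 6.98, 7.13 and 7.07. The log2 ratio was 0.29 ± 0.05 (SD, n = 4, limma adjusted p = 0.00373), a 1.22-fold difference. The pairs lay between 0.24 and 0.35, and the arrays between 0.23 and 0.38. This probe was dim too, with raw intensities of 68.9 to 222 with adenosine and of 94.0 to 204 in control. The ratio was 0.44 with an offset of 0, 0.47 in the authors' value table and 0.20 under median centring, and it passed the test in each case.

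**Figure D2:**
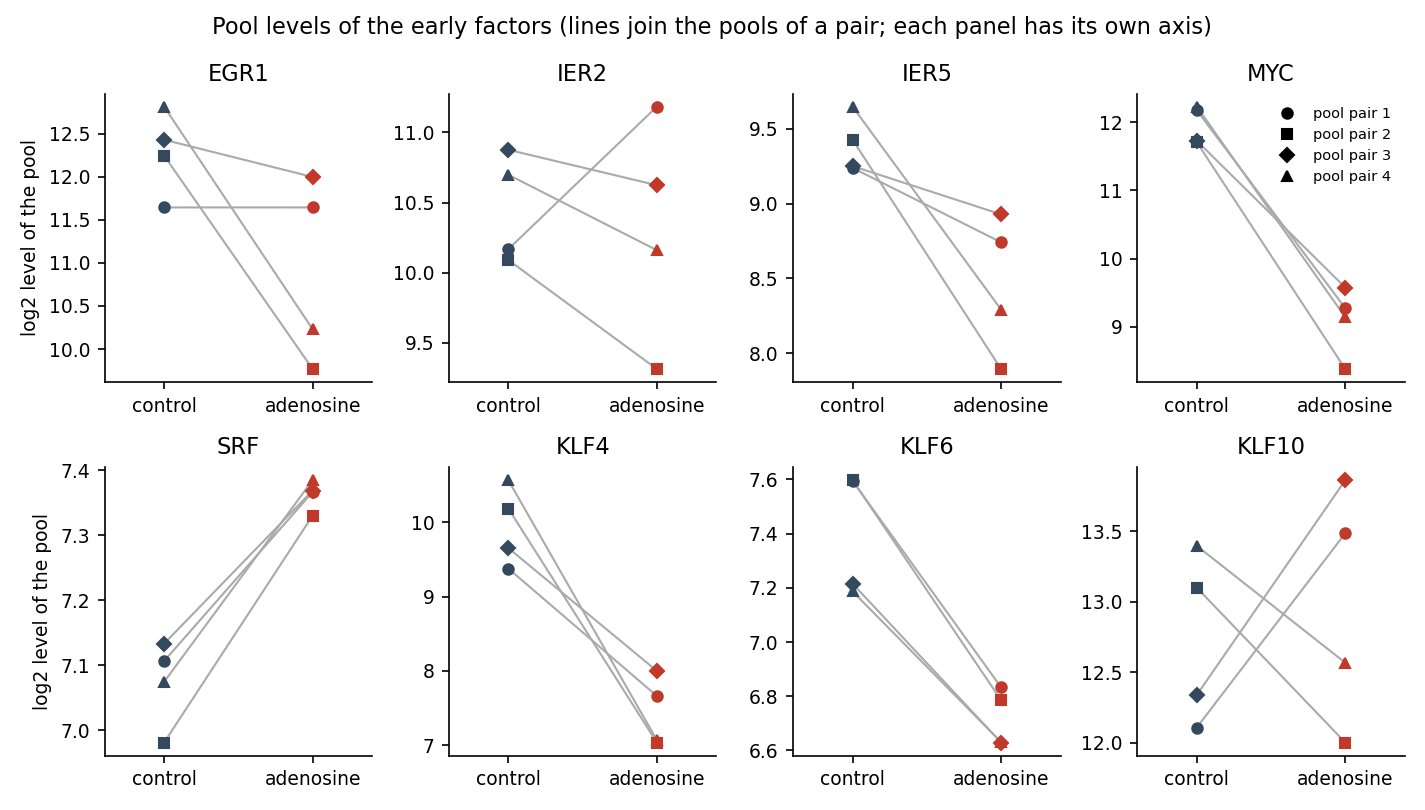
Log2 level of each pool (vertical axis, its own range in each panel) in control and with adenosine for the 8 measured genes, with lines joining the pools of a pair and a marker shape for each pair. Control and adenosine pools are apart for MYC, KLF4, KLF6, IER5 and SRF, and the KLF10 lines cross, rising in pairs 1 and 3 and falling in pairs 2 and 4.

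EGR1, a zinc-finger factor that is among the fastest genes to respond to hormonal and mitogenic signals, differed widely between the pool pairs. Its adenosine levels were 11.64, 9.77, 12.00 and 10.23 and its control levels 11.64, 12.24, 12.43 and 12.81, so that the groups overlapped. The pair ratios were 0.00, -2.48, -0.43 and -2.58. In pair 1 the adenosine and control pools thus had about the same mean level (0.21 and -0.21 on its arrays), and in pair 4 adenosine was 5.99-fold lower. The mean of -1.37 ± 1.35 (SD, n = 4) did not pass (limma adjusted p = 0.133). Within a pair the 2 arrays differed by 0.29 to 0.47, against a range of 2.58 between pairs. A fit of all 8 arrays with the replicate number as a random block did call EGR1 (limma adjusted p = 0.0194). That fit assumed for every probe the same correlation of 0.201 between the arrays of a pair. It thus treated these arrays as more independent than their EGR1 ratios were.

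EGR3, a relative of EGR1 with a similar DNA-binding domain, was detected in 1 of 8 adenosine channels and 2 of 8 control channels. Its levels were between 6.02 and 6.11 in all 8 pools, and no difference could be seen at this signal. It is not counted among the measured genes.

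IER5, a small regulator of phosphatase and heat shock factor activity, was lower with adenosine in 4 of 4 pairs but lay at the threshold. Its adenosine levels were 8.74, 7.89, 8.93 and 8.29 and its control levels 9.24, 9.43, 9.25 and 9.65, and the groups did not overlap. The pair ratios of -0.50, -1.53, -0.32 and -1.36 had a mean of -0.93 ± 0.61 (SD, n = 4, limma adjusted p = 0.05003). It passed under 10 of 16 alternatives, among them the replicate block (limma adjusted p = 0.00200) and leaving out the dim array of pair 3 (-0.94, limma adjusted p = 0.0404), but not when any of the 4 pool pairs was left out (limma adjusted p between 0.0508 and 0.176). For IER5 the 2 arrays of a pair differed by 0.08 to 0.17, against a range of 1.21 between pairs. The block fit, with its correlation of 0.201 for every probe, thus treated these arrays as more independent than their IER5 ratios were.

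IER2, a nuclear protein induced together with FOS and EGR1, had 2 kept probes. The brighter probe had adenosine levels of 11.18, 9.31, 10.62 and 10.16 and control levels of 10.17, 10.09, 10.88 and 10.70. The groups overlapped, with pair ratios of 1.02, -0.78, -0.25 and -0.54. The mean of -0.14 ± 0.80 (SD, n = 4) did not pass (limma adjusted p = 0.780), and without pair 2 its sign turned to 0.075. On this probe the 2 arrays of a pair differed by at most 0.083. The dimmer probe gave -0.44 where adenosine was labelled with Cy5, 0.57 in the swapped arrays and 0.07 ± 0.07 over both (limma adjusted p = 0.210).

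KLF10, a TGF-beta-inducible repressor, went in opposite directions in different pool pairs on its bright probe. The adenosine levels were 13.49, 12.00, 13.86 and 12.57 and the control levels 12.11, 13.10, 12.34 and 13.40. The pair ratios were 1.38, -1.10, 1.52 and -0.83, so that adenosine was higher in pairs 1 and 3 and lower in pairs 2 and 4. The mean of 0.24 ± 1.40 (SD, n = 4) did not pass (limma adjusted p = 0.778), and its sign turned without pair 1 (-0.13), without pair 3 (-0.18), with an offset of 0 (-0.038) and under median centring (-0.051). The 2 arrays of a pair differed by at most 0.21. A second, dim KLF10 probe did pass, with a log2 ratio of 0.81 ± 0.21 (SD, n = 4, limma adjusted p = 0.00453) and higher values on all 8 arrays. Its levels were 7.01, 7.19, 7.31 and 7.07 with adenosine and 6.06, 6.58, 6.29 and 6.43 in control, without overlap. The mean of both probes was 0.52 (limma adjusted p = 0.278). The sources used here do not give the transcript or exon that either KLF10 probe reads.

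The spread between pool pairs was large for most of these genes compared with genes in general. The SD between pairs exceeded that of over 97% of all measured genes for 5 of the 8: KLF10 (99.9%), EGR1 (99.9%), KLF4 (99.6%), IER2 (99.0%) and IER5 (97.4%). It exceeded that of 94.8% for MYC, 48.2% for KLF6 and 24.5% for SRF. The median SD of all genes was 0.13. This ranking was not matched for level. The 5 genes had mean log2 levels of 8.69 to 12.86, against 7.06 for KLF6 and 7.22 for SRF. The background setting used here makes the ratios of dim probes smaller, and their spread with them.

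**Figure D3:**
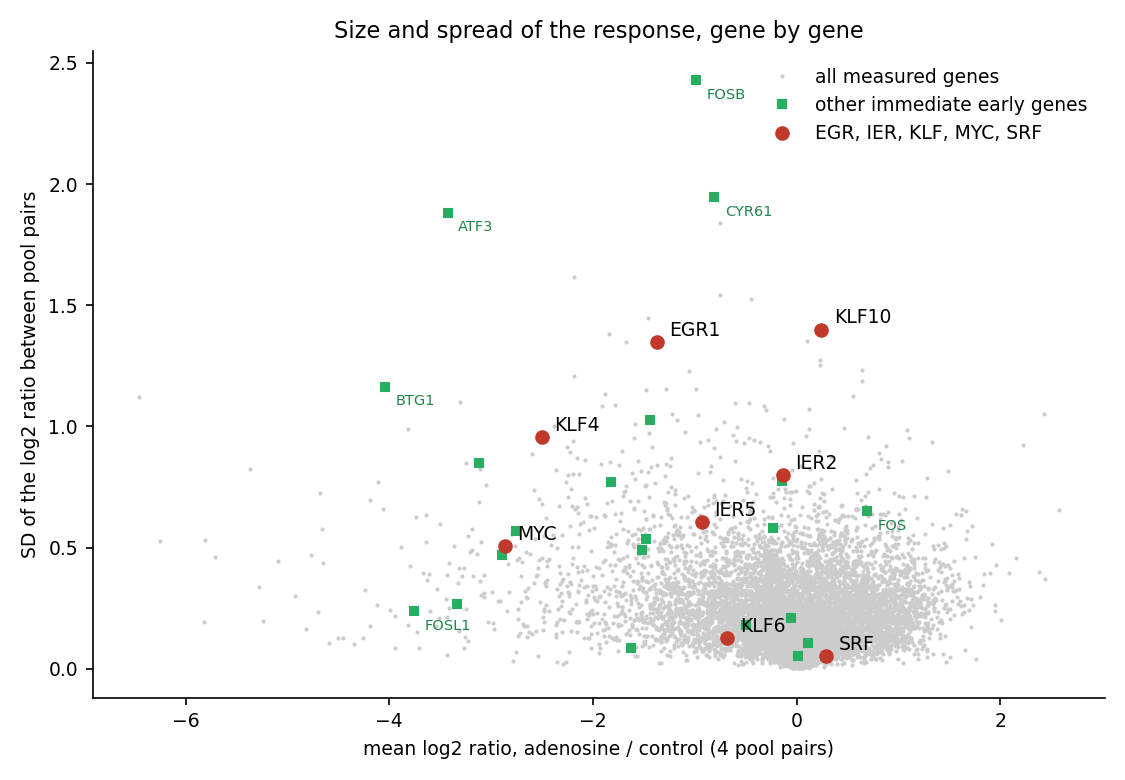
Mean log2 ratio of adenosine over control (horizontal axis) against the SD of the ratio between the 4 pool pairs (vertical axis) for 12320 genes, with the early factors as labelled circles and 21 other immediate early genes as squares. MYC combines a ratio of -2.86 with an SD of 0.51, while EGR1 and KLF10 have SDs of 1.35 and 1.40.

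The same pool pairs stood out in several genes. For 6 of the 8 (EGR1, IER2, IER5, MYC, KLF4 and KLF10) the ratios of pairs 2 and 4 were both below those of pairs 1 and 3, an order seen in 23.4% of all genes. The distance between the pairs in that order was over 0.5 for EGR1, IER5, KLF4 and KLF10, against 2.33% of all genes, while it was 0.28 for IER2 and 0.19 for MYC. SRF had the opposite order and KLF6 neither. For each of the 6 the adenosine pools 2 and 4 were the lowest of the adenosine pools, and for IER5, KLF4 and KLF10 the control pools 2 and 4 were also the highest of the control pools. This order was noticed in the values of these genes, and no test was made of it. The shares of all genes were not matched for level or for spread, and a distance over 0.5 takes a large spread between pairs. The labels name nothing that sets these pool pairs apart.

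The pattern was also present in other immediate early genes, a list of 21 measured genes that holds none of the 8. Of these 17 had pairs 2 and 4 below pairs 1 and 3, and 10 by over 0.5. FOSB, an AP-1 subunit named after its values were seen, had pair ratios of 1.12, -2.94, 1.11 and -3.24. CYR61, a matricellular protein and SRF target chosen in the same way, had 0.94, -2.52, 0.82 and -2.47. Neither passed the test, with limma adjusted p = 0.497 for FOSB and 0.488 for CYR61.

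Of these 21 immediate early genes 12 fell, 0 rose and 9 did not pass, with a median log2 ratio of -1.48. IER3, which modulates survival and ERK signalling, fell in all pairs alike (-1.62 ± 0.09, SD, n = 4, limma adjusted p = 0.000360). FOSL1, an AP-1 subunit, had pair ratios from -4.03 to -3.55. The orphan receptor NR4A1 had ratios from -3.61 to -3.02, and ZFP36L1, which promotes the decay of AU-rich transcripts, from -3.25 to -2.21, and both fell. NR4A1 was lower on all 8 arrays, but its mean ratio was -2.24 where adenosine was labelled with Cy5 and -4.42 on the swapped arrays.

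Among the relatives of the EGR and KLF genes most differences were small, but several probes were dim. KLF8, KLF9, KLF16 and KLF14 had mean log2 levels of 6.16, 6.17, 6.23 and 6.30, against 6.07 for the barely detected EGR3. At such levels a difference may not be visible. Of the 4 measured genes of the EGR family and its co-repressors 2 fell: NAB1, a co-repressor of EGR proteins, with a log2 ratio of -0.59 ± 0.06 (SD, n = 4, limma adjusted p = 0.00105), and WT1, a zinc-finger factor that binds EGR-like sites, with -0.41 ± 0.18. EGR4 and NAB2 lay between -0.05 and -0.02 and did not pass, on dim probes with mean log2 levels of 6.44 and 6.37. Among 12 other KLF and SP factors there were 5 falls and 1 rise, 6 did not pass, and the median was -0.09. SP1, the ubiquitous factor of GC boxes, fell 2.33-fold (-1.22 ± 0.18), SP3 had -0.91 ± 0.27, the repressor KLF3 -0.69 ± 0.08 and KLF5 -0.19 ± 0.05. The KLF5 probe was dim and was detected in 3 of 8 adenosine channels. Its mean ratio was -0.04 where adenosine was labelled with Cy5 and -0.34 on the swapped arrays.

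The MYC network was mixed. Of 11 measured partners and relatives 3 fell, 0 rose and 8 did not pass, with a median of 0.02. MYCN, the paralog of MYC, fell 5.48-fold (-2.45 ± 0.44, SD, n = 4, limma adjusted p = 0.00196), with pair ratios of -2.95, -2.64, -1.92 and -2.31. MXD1, which competes with MYC for its partner MAX, had -0.44 ± 0.13, and MGA, a MAX-binding repressor, -0.68 ± 0.24. MAX itself, the obligate partner of MYC and named after its value was seen, stood at 0.51 ± 0.34 without passing (limma adjusted p = 0.0527). Of 19 measured MYC target genes 6 fell, 1 rose and 12 did not pass, with a median of -0.12. NOP58, a box C/D ribonucleoprotein component, fell 4.64-fold (-2.22 ± 0.35), the cap-binding protein EIF4E 3.32-fold (-1.73 ± 0.23) and POLR1B, a subunit of RNA polymerase I, 3.02-fold (-1.59 ± 0.50). ODC1, the first enzyme of polyamine synthesis, fell 2.03-fold (-1.02 ± 0.34). The target that rose was CDK4, a cell cycle kinase named after its value was seen (0.80 ± 0.30).

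**Figure D4:**
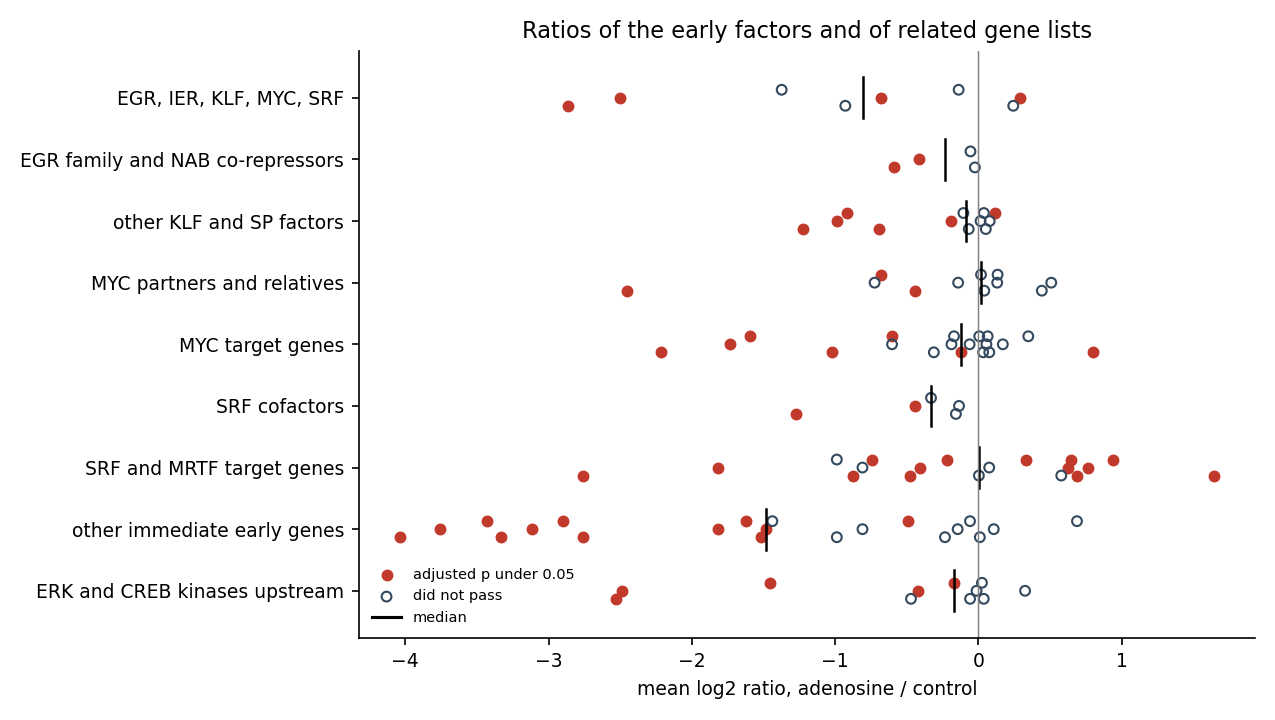
Mean log2 ratio of adenosine over control (horizontal axis) for each measured gene of the early factors and of 8 related lists, with filled points for an adjusted p under 0.05, open points otherwise and a bar at each list's median. The other immediate early genes have a median of -1.48, while the MYC partners, MYC targets and SRF targets have medians of 0.02, -0.12 and 0.00.

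Genes around SRF went both ways. Of 5 measured cofactors 2 fell, FHL2, a LIM protein that binds SRF (-1.27 ± 0.55), and the ETS partner ELK4 (-0.45 ± 0.23), and 3 did not pass, ELK1 and ELK3 among them. The ELK4 probe was dim, was detected in 5 of 8 adenosine channels, and had overlapping pool levels. Its mean ratio was -0.14 where adenosine was labelled with Cy5 and -0.75 on the swapped arrays. Of 19 SRF and MRTF target genes, 4 of which are also in the list of other immediate early genes, 7 rose and 7 fell, the remaining 5 not passing, and the median was 0.00. MYL9, a myosin light chain, rose 3.13-fold (1.64 ± 0.24, SD, n = 4, limma adjusted p = 0.00130) on average, with adenosine higher on all 8 arrays. The actin gene ACTG1 also passed among the genes that rose (0.77 ± 0.16), but its mean ratio was 1.93 where adenosine was labelled with Cy5 and -0.40 on the swapped arrays. Its pool levels, between 14.43 and 15.41 on the log2 scale, were near the top of the arrays' range, and no direction is drawn from it. MCL1, a survival factor of the BCL2 family, fell 6.78-fold (-2.76 ± 0.57), and TAGLN2, an actin-binding protein, 1.33-fold (-0.41 ± 0.07). Of 11 measured ERK and CREB pathway genes upstream 5 fell, 0 rose and 6 did not pass. MAP2K1, the kinase that activates ERK, fell 5.60-fold (-2.49 ± 0.16, limma adjusted p = 0.000393). The ERK-activated kinases RPS6KA3 and RPS6KA1 had ratios of -1.45 ± 0.09 and -2.53 ± 0.70, and BRAF had -0.42 ± 0.19. CREB1 did not pass (-0.01 ± 0.05), nor did MAPK3 (0.02 ± 0.02). Both probes were dim, with mean log2 levels of 6.21 and 6.28, where a difference may not be visible. The mean ratio of CREB1 was 0.12 where adenosine was labelled with Cy5 and -0.15 on the swapped arrays.

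For the 4 genes that changed, the genes with the most similar levels over the 8 pools were taken by Pearson's r, as a description: the 8 points form a control and an adenosine group, so that r mostly reflects the difference between these. For MYC they were FOXK2 (r = 0.995), LUM (r = 0.993) and MAPK1IP1L (r = 0.992), and 8 genes exceeded 0.99. For KLF4 they were SBNO1 (r = 0.994), PPP1R2 (r = 0.994) and IKZF5 (r = 0.992). For KLF6 they were CABYR (r = 0.994), NMT2 (r = 0.993) and MEIS1 (r = 0.993). SRF was closest to NPC2 (r = 0.991), NRG1 (r = 0.984) and NUDT3 (r = 0.983). LUM, close to MYC, is also 1 of the 3 theca and stroma markers that fell (-1.61), while 2 of these markers rose.

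**Figure D5:**
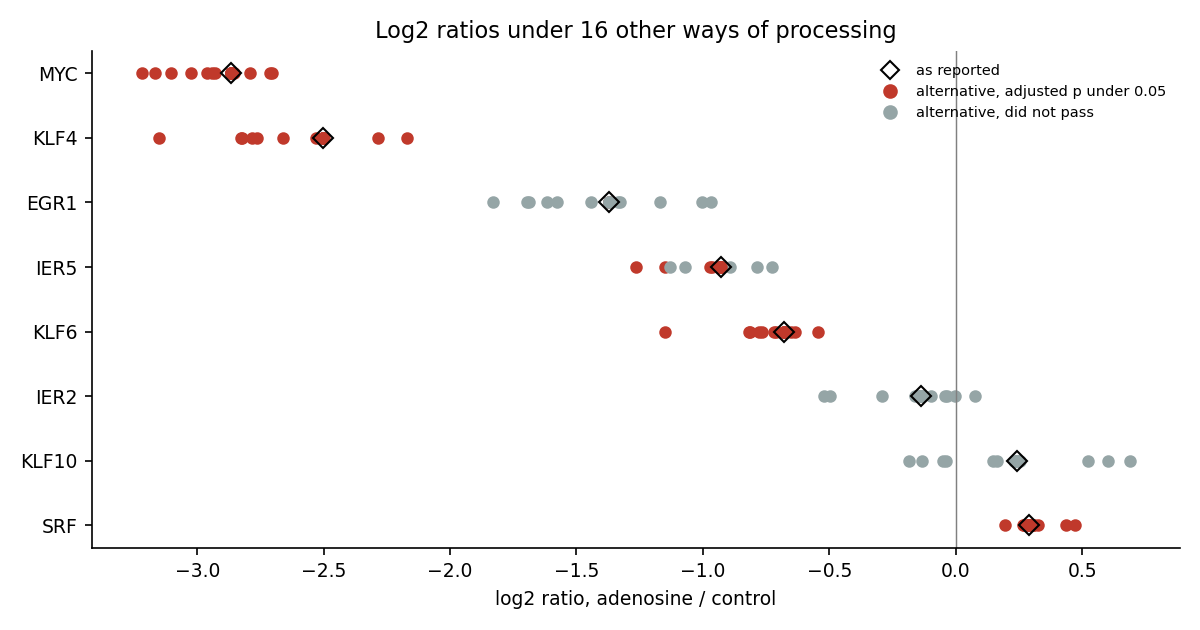
Log2 ratio of adenosine over control (horizontal axis) of the 8 genes as reported (diamonds) and under 16 alternatives, coloured by whether the adjusted p was under 0.05; points of equal value cover each other. MYC, KLF4, KLF6 and SRF passed in all 16, IER5 in 10 and EGR1 in 1, while IER2 and KLF10 passed in none and lay on both sides of 0.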

How the data were processed

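Cumulus cell RNA went through 2 rounds of T7 amplification before labelling with Cy3 or Cy5, per the labels' protocols. The deposited scanner files hold raw intensity, the mean foreground and median local background of 45220 spots at 532 and 635 nm (taken as Cy3 and Cy5), per the file headers, with no background subtraction. The authors' deposited value table holds normalized log2 ratios. Set against the scanner values of bright probes it ran as adenosine over control on every array (slopes 0.978 to 1.05, array medians 0.00566 to 0.0524), while the sources used here do not give how the authors normalized and centred it. Another table of 8 columns named by slide and area was not used here.

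Background was corrected with normexp (offset 50), a setting under which dim probes have smaller ratios, and arrays were normalized by loess with 1426 control spots at weight 0 (limma 3.58.1, R 4.3.3). Spots that the files mark as ignored were left out. All ratios are adenosine over control, and the mean of the 2 arrays of a number was used. Each slide held 1 dye orientation, so a dye effect that differs between slides does not cancel. Detection required a foreground above a level set from the 153 negative controls of the channel (mean plus 2 SD), and kept probes were detected in both arrays of at least 3 of 4 pools of either group. The 4 pair ratios were tested against 0 with lmFit and eBayes, adjusted over 31948 probes by Benjamini-Hochberg. Pool levels are single-channel log2 values after loess and Aquantile scaling, and precision is limited by the number of arrays. The fit was tested on simulated data.

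Same-numbered arrays hold the same RNA per the labels. Their deviations from the orientation means correlated between 0.784 and 0.933 across probes, and the best match of 8 of 8 arrays was the array of the same number. The brightest kept probe stood for a gene. Besides the early factors, up to 4 genes of each list with the smallest p were named, among those past the threshold with the same sign in all pairs. EGR4, NAB2, ELK1, ELK3, CREB1, MAPK3 and the cell type markers were named outside this rule, after their values were seen. Promoter motifs were not analysed here. Probe names come from the platform's annotation of the array's design, and 10 of the 10 symbols were found in a gene table of a Bos indicus assembly. The genes, lists and alternatives were chosen with earlier results of these data known. Fitted alternatives changed the background, the normalization, the filter, the pairing, the dye orientation, the probe rule and the arrays used.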

Additional observations from a re-analysis of the deposited data

Results flagged for a closer look

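Among 30 groups of 4 values for the kept probes 1 had a value far from the others, where chance gives about 1 in 20. It was the dimmer IER2 probe in the adenosine pool of pair 3, at a log2 level of 6.54 against 6.61 to 6.62 in the other pools. The ratios of this probe also had opposite signs in the 2 dye orientations, negative on all 4 arrays with adenosine in Cy5 and positive on all 4 with adenosine in Cy3, with a difference of -1.01 that was not tested. The brighter IER2 probe gave -0.14 in the former and -0.13 in the latter.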

How the results depend on the processing

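MYC, KLF4, KLF6 and SRF kept their direction and passed under all 16 alternatives: the log2 ratios ranged from -3.22 to -2.70 for MYC, from -3.15 to -2.17 for KLF4, from -1.15 to -0.55 for KLF6 and from 0.20 to 0.47 for SRF. IER5 also passed under 10 alternatives and EGR1 under the replicate block alone. The count of changed genes among the 8 lay between 4 and 6, with 6 (1 higher, 5 lower) under the replicate block, which called 13614 probes against 11881 as reported (5975 higher, 5906 lower), and changed no other call of the 8. An unpaired fit of pool levels with no replicate block called 7516 probes. Leaving out 1 pool pair gave 6603 to 9704 probes, the lowest without pair 4, from fewer samples. Median centring gave 4720 higher and 7523 lower. Of the values without a call, these changed sign: KLF10 (-0.038 with an offset of 0, -0.051 under median centring, -0.18 to 0.69 without 1 pair) and IER2 (-0.52 to 0.075 without 1 pair); the cause was not tested. Ratios of the dim KLF6 and SRF probes, and of KLF4 with its low adenosine signal, are limited by the signal over background.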
